A study of Mus musculus with 10 samples.

Results

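The peaks described here are the stretches of the genome where elongating RNA polymerase II took a larger part of the CUT&RUN signal in muscle stem cells (MuSCs) lacking the histone methyltransferase KMT5B than in control MuSCs. CUT&RUN cuts and sequences the DNA next to an antibody bound to chromatin. The antibody here, Pol II S2P, recognises the polymerase when the second serine of its tail repeats carries a phosphate. Of 51322 Pol II S2P peaks, 50698 lay on autosomes and 22340 of those had a mean score over 50 and were tested. Members were chosen by their Pol II S2P scores. Each library was divided by its autosomal total and multiplied by the mean total, and the lower sKO value had to exceed 1.3 times the higher Ctrl value. That held for 998 peaks, or 4.47% of those tested. The mirrored rule, with the lower Ctrl value over 1.3 times the higher sKO value, held for 678 peaks (3.03%).

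The cells were cultured mouse satellite cells on a C57BL/6 background, and the series holds 10 libraries. Ctrl cells carried Pax7CreERT with wild-type Kmt5b, which the labels call Suv4-20h1WT. The sKO cells carried Pax7CreERT with a floxed Kmt5b that was deleted, labelled Suv4-20h1KO. Both genotypes thus carried the Cre, which is driven by Pax7, a satellite cell gene, and is switched on by tamoxifen, given to adult mice. Pol II S2P and monomethylated histone H4 lysine 20 (H4K20me1) were each mapped in 2 Ctrl and 2 sKO libraries. The 2 libraries made with IgG were not used. The study states that replicates were biological, and with 2 against 2 libraries an exact permutation test over libraries cannot go below p = 0.333.

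KMT5B adds a methyl group to H4K20me1 to make H4K20me2, so its substrate is the mark placed earlier by KMT5A. Serine 2 phosphorylation of Pol II builds up as the polymerase moves through a gene and is highest toward its end. Beyond the polyadenylation site the polymerase runs on while the RNA is cleaved, until it is released from DNA, a process called termination.

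Autosomal totals of the deposited Pol II S2P scores were 3224367 and 4201202 for Ctrl, while sKO reached 4836482 and 3401198, so neither genotype was higher throughout. The 2 peaks listed with Kmt5b together scored 24 and 62 in Ctrl on the deposited scale, and 48 and 22 in sKO, which did not separate the genotypes. Of 9 satellite cell markers 7 had autosomal peaks, and their summed share-scaled scores were lower in both sKO libraries (7665 and 7463) than in both Ctrl libraries (9222 and 7992). The gap was widest at Myod1, with sKO scores of 718 and 747 against 1614 and 1035. Both sKO libraries were also lower at Itga7 and Vcam1. At Pax7, Sdc4, Megf10 and Des the genotypes overlapped. Both Myf5 and Cdh15 had no peak listed with them. A member listed with Galnt2 had Cdh15 as the nearest gene end behind it, but at 66.7 kb, too far to show signal at Cdh15. Whether signal at Cdh15 was listed with another gene was not tested. Schwann cell markers (2 of 4 with a peak) were higher in sKO, where they summed to 187 and 184 against 114 and 154. Fibro-adipogenic markers (1 of 6) were lower there, at 66.4 and 57.6 against 87.4 and 71.8. Endothelial markers (2 of 5) summed to between 162 and 207, and there the genotypes overlapped. Pdgfra, Ptprc and Cdh5 had no peak. Immune markers summed to between 929 and 1108 (2 of 6), also with overlap, nearly all of it in 1 peak listed with Cd68. Markers of pericytes and smooth muscle (3 of 5) summed to 1863 and 1887 in Ctrl, with 1414 and 1319 in sKO, most of it in Notch3. The part of these marker lists in the results was not tested.

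Sequence at the centre of 2 of the 5 members with the largest ratios is shown first, as examples. Both are from the plus strand of GRCm38, 300 bases each and outside annotated exons. The first lies at chr19:29317699-29317998 and the second at chr7:59326829-59327128, inside the long noncoding RNA gene Snhg14. Capitals mark letters of the motifs given further on. The first window held 1, CCAAT, and the second held none.
Peak past Insl6: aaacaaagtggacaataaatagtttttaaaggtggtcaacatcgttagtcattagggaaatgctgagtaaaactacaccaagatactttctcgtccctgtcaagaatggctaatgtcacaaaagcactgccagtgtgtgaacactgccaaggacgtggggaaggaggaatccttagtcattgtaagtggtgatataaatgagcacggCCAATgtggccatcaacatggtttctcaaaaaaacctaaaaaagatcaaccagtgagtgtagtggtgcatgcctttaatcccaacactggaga
Peak in Snhg14, past Ube3a: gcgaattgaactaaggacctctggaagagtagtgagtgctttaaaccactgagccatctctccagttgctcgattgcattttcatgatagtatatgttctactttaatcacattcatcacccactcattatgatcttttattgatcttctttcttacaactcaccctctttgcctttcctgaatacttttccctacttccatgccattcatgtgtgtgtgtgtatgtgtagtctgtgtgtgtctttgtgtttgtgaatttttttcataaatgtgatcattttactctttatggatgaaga
GC content was 41.7% in the first and 37.0% in the second. Of the bases of the whole peaks, 48.0% and 48.5% were marked as repeats in the genome sequence. The median was 12.7% in members and 8.87% over all tested peaks.

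Scores from here on are share-scaled and are given in the order Ctrl 1, Ctrl 2, sKO 1 and sKO 2 unless stated. The rule fixed the direction of every member, so their Pol II S2P values are a description and carry no test. The largest ratio, 3.36, was at chr19:29317447-29318251, an intergenic peak 3.495 kb past the end of Insl6, with 35.2, 36.4, 128 and 122. Next was an intronic peak of Rnf125, which encodes a ubiquitin ligase, with 30.4, 20.5, 122 and 100.2. At chr9:90078325-90079002, 2.57 kb past the lysosomal protease gene Ctsh, scores were 46.1, 38.2, 186 and 147. In these 3 peaks both sKO libraries lay at more than 3 times either Ctrl library.

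In Stk32a, a kinase gene on chromosome 18, the peak with a ratio of 2.77 had 26.7, 27.03, 122 and 74.8. In Snhg14 the peak shown above had 30.4, 17.7, 103 and 81.7. A peak 15.4 kb past Srek1, which encodes a splicing regulator, had 21.9, 18.6, 108 and 58.7. In all 3 the higher sKO library was replicate 1.

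The last 8 of the 15 largest ratios ran from 2.64 to 2.40. They included an intronic peak of Rarb that lies 3.54 kb past the end of the topoisomerase gene Top2b, with 104, 103, 283 and 268. A peak 12.6 kb past Hnrnpf, centred 510 bases from the start of Fxyd4, had 34.0, 49.4, 156 and 129. One peak 10.7 kb past the scaffold gene Iqgap1 had 43.7, 39.1, 133 and 113. Others lay near Olfr1373, Zfp719, Ctsh and Crhbp.

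**Figure D1:**
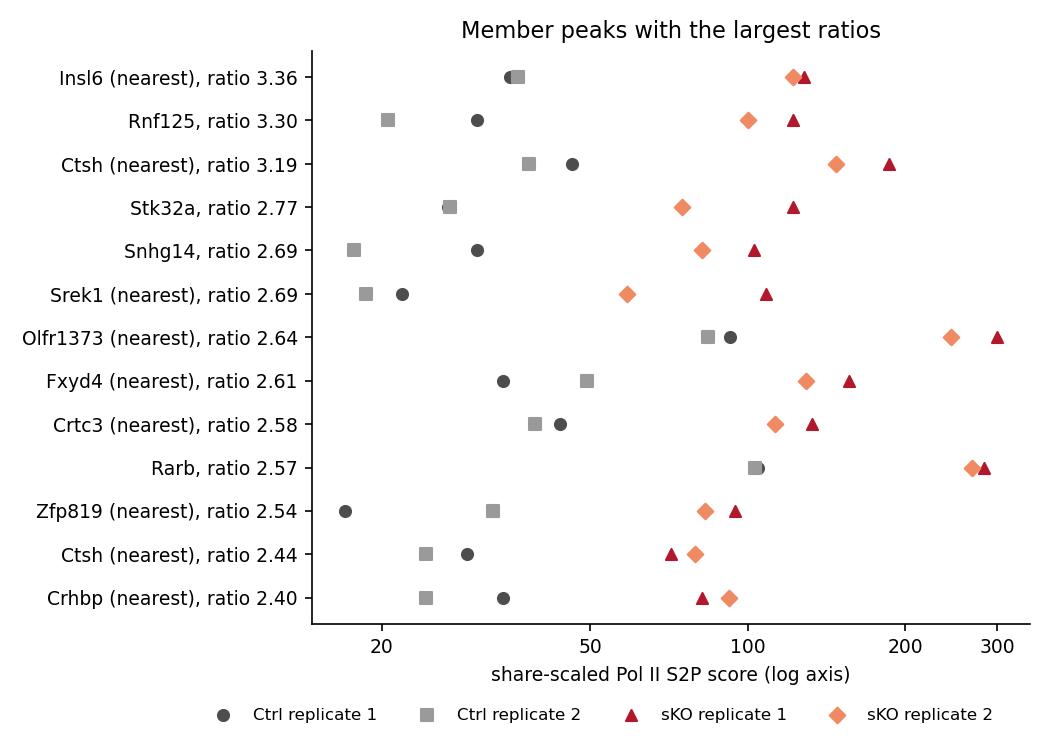
Share-scaled Pol II S2P score (log axis) of 13 of the 15 members with the largest ratio in each of the 4 libraries; rows are named by the listed gene or, where none is listed, by the nearest protein-coding gene start. Circles and squares are Ctrl, triangles and diamonds sKO; in every row both sKO points lie above both Ctrl points, as the rule requires, with ratios from 3.36 down to 2.40.

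Ratios were mostly modest. The median member had a ratio of 1.44, 384 members exceeded 1.5 and 49 exceeded 2. The 3 peaks just inside the limit had ratios of 1.30022, 1.30022 and 1.30013 and lay in Prrc2b and in intergenic DNA. The 3 just outside had ratios of 1.3, 1.29971 and 1.29969 and lay at the starts of Cnp, Polr2l and Sun1, in that order. Mean scores of members ranged from 50.1 to 2276 with a median of 78.9, against 93.3 over all tested peaks.

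The members with the highest scores were long peaks, mostly close behind the ends of genes. At chr9:35508790-35516688, listed with Vsig10l2 and centred 5.09 kb past Cdon, scores were 1887, 1783, 2780 and 2651. Cdon encodes a cell surface receptor that promotes myogenic differentiation. The peak centred 2.33 kb past Ube2d3, a ubiquitin-conjugating enzyme gene, had 1717, 1941, 2799 and 2537. A peak 5.04 kb past the casein kinase gene Csnk1a1 had 1612, 1860, 2741 and 2459. The rule required both sKO libraries to exceed both Ctrl libraries in these 3 peaks, so the gap between genotypes is no test.

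Of the other 7 highest, those at Acot13, Picalm, Arfgap1 and Sqstm1 were centred within 5 kb past the end of that gene. The one past Arfgap1 is listed with Col20a1 and was centred 97 bases from the start of Col20a1. Behind Picalm, a clathrin assembly gene, scores were 758, 846, 1330 and 1185. Behind Sqstm1, which encodes the autophagy receptor p62, they were 509, 725, 1143 and 1003. The remaining 3 were an unlisted peak on chromosome 7, a peak in Aopep and a peak in Ccdc7, the last 4.19 kb past the predicted gene Gm3952.

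Few members lay at gene starts. By peak centre, 69 of 998 members (6.91%) lay within 1 kb of an annotated gene start, against 23.9% of all tested peaks. Among peaks that met the rule without Ctrl replicate 2 or without sKO replicate 1 it was 11.8% or 10.8%. Intergenic DNA held 329 members (33.0% against 17.8%), the first 3 kb past gene ends held 178 (17.8% against 13.6%), and gene bodies held 422 (42.3% against 44.7%). Peaks that lost share by the mirrored rule were at a gene start in 30.2% of cases and intergenic in 14.2%. No gene was listed for 436 members (43.7%), compared with 25.6% of tested peaks.

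**Figure D2:**
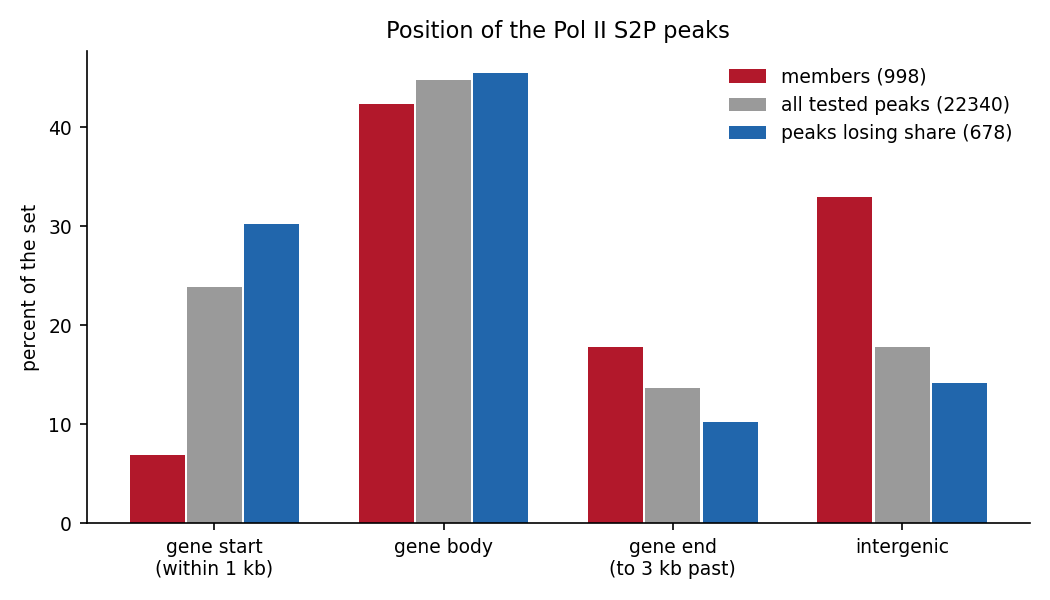
Percent of peaks in each position class for the 998 members (red), all 22340 tested peaks (grey) and the 678 peaks losing share (blue). Members are fewest at gene starts (6.91% against 23.9% of tested peaks) and exceed the tested peaks most in intergenic DNA (33.0% against 17.8%).

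Most members lay downstream of protein-coding genes. This measure was chosen after the values were seen. Within 20 kb past a protein-coding gene end lay 716 members (71.7%), against 48.7% of all tested peaks and 37.5% of those losing share. Put the other way, 6.58% of the 10874 tested peaks in that zone were members, and 2.46% of the 11466 tested peaks elsewhere. Between 3 and 15 kb lay 506 members (50.7%), against 27.6% of tested peaks and 15.8% of losing peaks.

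The share of members changed with distance. Of tested peaks up to 1 kb past an end, 4.60% were members, and of those at 1 to 3 kb, 4.82%, both near the 4.47% over all tested peaks. It was 6.87% at 3 to 5 kb, 9.36% at 5 to 10 kb and 7.80% at 10 to 15 kb. Beyond that it was 3.48% at 15 to 20 kb and 1.5% at 30 to 50 kb. Losing peaks ran the other way, with 1.26% at 3 to 5 kb and 4.30% at 15 to 20 kb. Upstream of gene starts, no such rise with distance was seen. There the share of members was 0.917% within 1 kb and between 4.75% and 6.33% in every bin from 1 to 50 kb.

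**Figure D3:**
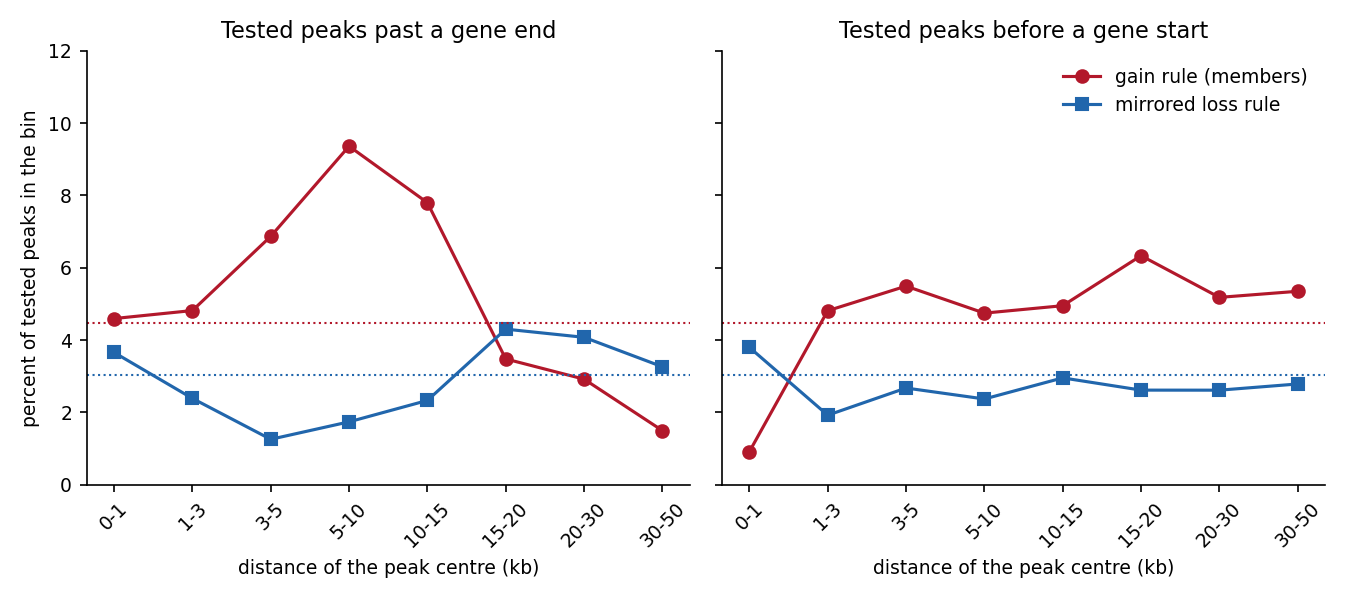
Percent of tested peaks that met the gain rule (red circles) or the mirrored loss rule (blue squares), by distance of the peak centre past a protein-coding gene end (left) or before a protein-coding gene start (right); dotted lines mark the shares over all tested peaks, 4.47% and 3.03%. The gain rule reaches 9.36% at 5 to 10 kb past an end, where the loss rule is at 1.74%.

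The same was seen in what each library held. Peaks 3 to 15 kb past protein-coding gene ends took 27.9% and 28.9% of the autosomal score in Ctrl and 31.4% and 30.04% in sKO. Without the members the Ctrl shares were 27.4% and 28.3% and the sKO shares 30.5% and 29.1%. Gene starts took 23.9% and 23.4% in Ctrl and 21.6% and 22.2% in sKO. In each case the genotypes did not overlap, although these shares come from the libraries the rule used. A share can rise because other peaks fell, and the scale cannot tell these apart.

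The gene that the deposited table lists for a member was often not the gene whose end lay behind it. Of 562 members listed with a gene, 323 (57.5%) lay within 20 kb past the end of another protein-coding gene, against 42.1% of tested peaks listed with a gene. In 232 of these 323 (71.8%, against 56.2% of the tested peaks past another gene's end) the listed gene and the gene behind were on opposite strands. Of the 436 members with no listed gene, 372 (85.3%) were within 20 kb past an end, compared with 61.7% of such tested peaks. CUT&RUN reads carry no strand of transcription, so the score of a peak where genes meet cannot be assigned to either.

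Of 5931 protein-coding genes with a tested peak within 20 kb past their end, 557 had 1 or more members there, 119 had 2 or more and 28 had 3 or more. Of these 557 genes, 381 also had tested peaks inside, and 56 of the 381 had a member inside. The matching count over all genes with tested peaks inside and past the end was not made. Nothing is therefore read from the 56. Summed over the peaks inside, the log2 ratio of mean sKO to mean Ctrl score had a median of 0.011 over these 381 genes, with quartiles of -0.18 and 0.21. The median over all 3202 genes with tested peaks both inside and past the end was -0.062. The sum inside was lower in sKO in 186 of the 381.

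Members came in runs. A run was counted when the centres of consecutive members were at most 10 kb apart. By this count 345 members (34.6%) had another member within 10 kb, compared with 8.81% of all tested peaks. There were 98 runs of 2, 26 of 3, 10 of 4, 5 of 5 and 1 of 6. Neighbouring peaks share a stretch of chromatin and are not independent.

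The longest run lay at chr7:59321012-59327237, where all 6 tested peaks were members. It is inside Snhg14, a long noncoding RNA gene that hosts small nucleolar RNAs, and 9.72 to 15.4 kb past the end of Ube3a, an imprinted ubiquitin ligase gene on the opposite strand. Summed scores were 400, 364, 827 and 721. In the 6 peaks the scores of both sKO libraries lay between 66.4 and 258, and those of both Ctrl libraries between 17.7 and 146. Of the 4 tested peaks nearer to Ube3a, at 1.5 to 8.3 kb, none was a member.

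Past Rap1b, which encodes a Ras-family GTPase that activates integrins, 5 of 6 tested peaks were members, 5.30 to 14.3 kb beyond its end at chr10:117798942-117808940. Their summed scores were 340, 419, 839 and 736. The 1 tested peak inside Rap1b had 101, 33.6, 47.0 and 31.1. The rule fixed the direction of the members' sum. Over all 6 tested peaks past the end the sums were 390, 495, 1047 and 827. Inside the gene, with 1 tested peak, Ctrl replicate 1 was the highest library.

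Behind the splicing factor gene Srsf5, 4 of 7 tested peaks were members, 6.28 to 13.1 kb past the end. The table lists all 4 with Slc10a1, a bile acid transporter gene on the opposite strand. Members summed to 483, 460, 971 and 746. The peak 0.5 kb past Srsf5 had 158, 168, 194 and 211, and the member at 12.3 kb had 29.1, 27.03, 99.6 and 51.8.

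Past Hnrnpc, which encodes an abundant pre-mRNA binding protein, peaks at 1.5 and 2.2 kb had 37.6, 55.9, 56.7 and 55.3, and 158, 160, 146 and 191. The 4 members, at 7.48 to 10.6 kb, summed to 181, 330, 715 and 475. In the peaks at 1.5 and 2.2 kb the genotypes overlapped, and in the 4 members the rule excluded overlap. The peaks at 0.5 and 4.9 kb, with 152, 157, 193 and 215, and 848, 989, 1323 and 1202, did not overlap either but were under the ratio of 1.3. Hnrnpc also had 3 members among 16 tested peaks listed with it.

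Hnrnpd, which encodes an RNA binding protein of the same class, had 1138, 1200.5, 1460 and 1427 in its peak at 1.1 kb. Its 4 members, at 5.52 to 7.82 kb, summed to 228, 285, 509 and 496. These 4 are listed with Vamp9. The sorting nexin gene Snx5 had 749, 691, 504 and 657 at 3.7 kb, where both sKO libraries were lower, and a sum of 256, 245, 702 and 481 in 4 members at 7.21 to 13.4 kb.

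Past Ankrd10 the tested peak at 1.8 kb had 189, 151, 177 and 169, and the members at 9.2 and 10.99 kb had 108, 120.2, 304 and 285, and 115, 140, 253 and 242. Past Col3a1, the gene of a fibrillar collagen chain, members lay at both ends of the stretch, at 0.922 and 1.51 kb and at 9.45 and 11.03 kb, and the 4 summed to 424, 421, 693 and 766. Past Ctsh, 4 of 5 tested peaks between 1.03 and 5.24 kb were members and summed to 171, 150.1, 493 and 431. Col3a1 and Ctsh thus had members close to the end as well.

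**Figure D4:**
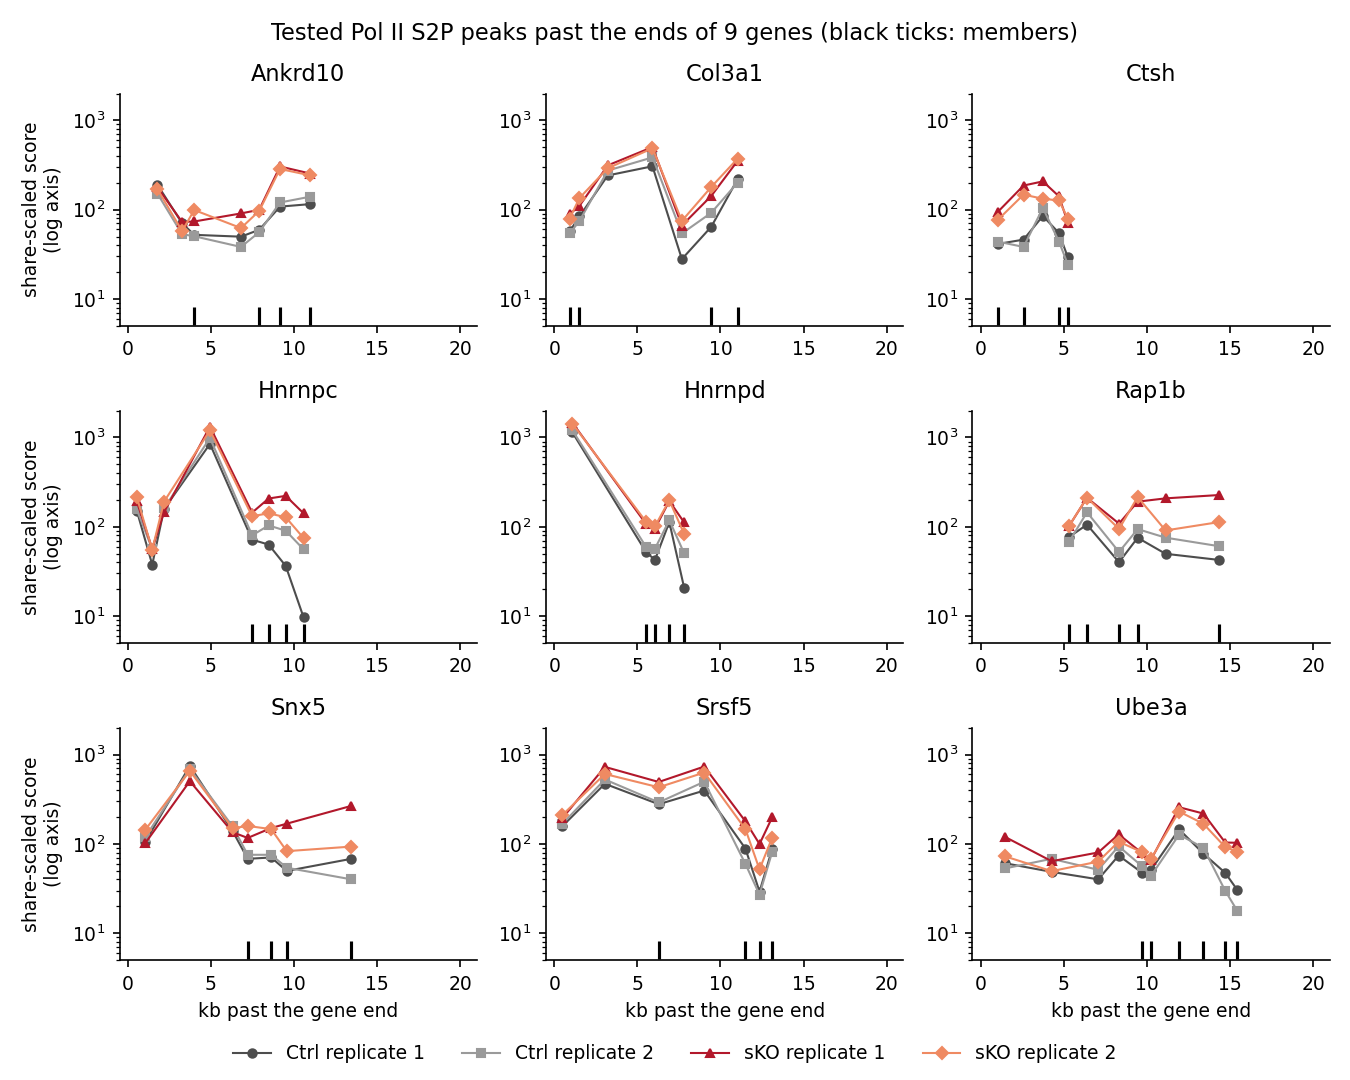
Share-scaled Pol II S2P score (log axis) of every tested peak within 20 kb past the end of the 9 protein-coding genes with 4 or more members there, by distance of the peak centre from the end. Circles and squares are Ctrl, triangles and diamonds sKO, and black ticks mark members. In the peak nearest the end the genotypes overlap at Snx5 and Ankrd10 only. At Ube3a, Hnrnpc, Hnrnpd and Srsf5 both sKO libraries lie above both Ctrl libraries in that peak. At Col3a1, Ctsh and Rap1b that peak is itself a member. In all members the genotypes lie apart, as the rule requires.

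Further genes had 3 members past the end: Actn1, Btg1, Cpsf6, Csnk1a1, Ctnnb1, Dpysl3, Pias2, Ppp2r1a, Prkar1a, Rtn4, Sp3 and Strn3 among them. For Ctnnb1, the gene of beta-catenin, members at 10.7 to 15.9 kb summed to 803, 751, 1165 and 1119, and the 3 tested peaks inside the gene to 299.97, 219.97, 244 and 251. For Cpsf6, which encodes a subunit of a cleavage and polyadenylation factor, members at 9.70 to 11.9 kb summed to 291, 276, 569 and 524. Inside Ctnnb1 the genotypes overlapped, and in the members the rule excluded overlap. Over all 8 tested peaks past Ctnnb1, members or not, the sums were 1557, 1365, 1693 and 1651. Over all 7 past Cpsf6 they were 785, 827, 1126 and 1162.

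Some genes held 3 or more members by the table's own listing. Aebp2, which encodes a partner of the Polycomb complex, had 5 members among 6 tested peaks, and all of its tested peaks together summed to 1043, 1180, 1991 and 1924. Aopep had 5 of 44, all in the last 11 kb before its end at chr13:63326096, with 1112, 1319, 2193 and 1912. Ncam1, a neural cell adhesion gene, had 5 of 66 and they were low, with 237, 249, 410 and 419. Only in Aebp2 of these 3 did most tested peaks meet the rule.

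The noncoding gene 5031425E22Rik had 4 of 16, Galnt2 4 of 181, Spon1 4 of 7 and Vamp9 4 of 5. The span listed for Galnt2 runs over many neighbouring genes. Its members lay 2.18 to 66.7 kb past Zfp276, Fanca and Cdh15, the farthest being the one past Cdh15. Adss1, Ccdc7, Cdon, Coch, Eml6, Fam20a, Map4k4, Stk32a, Ulk4 and Zwint had 3 each. Members in Coch lay past Strn3, those in Ulk4 past Ctnnb1, those in Eml6 past Rtn4 and those in Spon1 past Rras2. In Spon1 they summed to 157, 231, 455 and 380.

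The members were then set against lists of genes for the pathways of this cell type. By the gene listed, satellite cell and myogenic genes had 1 member among 74 tested peaks, at Sdc4, and actin cytoskeleton and adhesion genes had 2 of 197, at Itgb1 and Actn4. Immediate early genes had 0 of 36, p53 response genes 0 of 21 and secretory and NF-kB genes 0 of 22. Matrix and TGF-beta genes had 4 of 70, in Col3a1, Smad6 and Lamc1. Ras and MAPK genes had 2 of 28, contractile genes 3 of 78 and interferon response genes 1 of 6, at Irf7. Stress genes had 1 of 28, cell cycle genes 1 of 50 and YAP and TEAD target genes 1 of 74. Over all tested peaks listed with a gene 3.38% were members, and 8 of the 13 lists lay below that share.

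By the gene whose end lay within 20 kb behind the peak, 9 of the 13 lists held more members. There the share over all tested peaks was 6.58%. Of the p53 response genes, 5 of 21 tested peaks past 10 genes were members. They lay past Ccng1, Mdm2, Btg2 and Aen, all induced by p53. The larger of the peaks past Aen was also within 1 kb of a gene start. The peak 0.813 kb past Ccng1 had 32.8, 27.03, 68.0 and 74.8. The long peak 1.75 kb past Mdm2, which encodes the ubiquitin ligase for p53, had 506, 467, 877 and 919. In all 5 peaks both sKO libraries were higher, as the rule requires. The rule does not fix the other peaks past these genes. Over the 2 tested peaks past Btg2 the sums were 195.5, 252.6, 266 and 195.7, and the genotypes overlapped. Over the 3 past Ccng1 they were 242, 229, 265 and 256, without overlap.

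Ras and MAPK genes had 6 of 30 tested peaks past 11 genes, behind 3 genes that include Spred2 and Rasa1. Rasa1 encodes a GTPase activating protein for Ras, and its peak at 6.52 kb had 313, 304, 466 and 481. Matrix genes had 6 of 30, behind Col3a1 and Smad7. Smad7 encodes an inhibitor of TGF-beta signalling, and its peak at 5.45 kb had 289, 263, 492 and 427. With 2 or 3 genes behind each count, these shares rest on few genes.

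Actin cytoskeleton genes had 6 of 80, behind Actn1, Pdlim7, Tln1 and Cd44, and cell cycle genes 4 of 50, behind Hmga2, Orc1 and Rb1. Hmga2, a chromatin protein gene active in proliferating MuSCs, had 334, 363, 697 and 683 at 5.63 kb. Satellite cell genes had 2 of 50, 1 of them past Mef2a. Stress genes had 3 of 26, secretory genes 2 of 20, immediate early genes 2 of 26, both past Fosl2, contractile genes 1 of 35, YAP and TEAD target genes 1 of 24 and interferon genes 0 of 11. The inhibitor gene Nfkbia had the largest ratio among them, 2.27, with 36.4, 29.8, 82.6 and 87.5 at 2.52 kb. H4K20 methylation genes had 0 of 3 by listing and 0 of 4 by the end behind.

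Base composition differed as well. Median GC content was 45.3% in members, 49.6% over all tested peaks and 52.8% in peaks losing share. Of tested peaks under 40% GC, 9.78% were members, and the share fell in every further bin to 0.600% above 60% GC. Between 3 and 15 kb past gene ends the median GC of tested peaks was 48.8% to 51.7%, close to that of all tested peaks. When a trend on GC was taken out of each library, 867 peaks met the rule, 761 of them members, and 73.7% of the 867 lay within 20 kb past an end and 12.3% at a gene start. Members were somewhat shorter (median 570 against 618 bases), and 5.51% of them had a near copy among tested peaks, a match of at least 200 bases at 80% identity, against 2.32%.

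Motifs were searched on both strands in the 300 bases around each peak centre, and none of the motifs contains another. For any peak shorter than 300 bases this window reaches past the peak. The E-box CAGCTG, a form bound by MyoD-family factors, was in 17.5% of members and 28.1% of tested peaks. The SP1 motif GGGCGG was in 5.21% against 20.6% and the ETS motif CCGGAA in 3.31% against 9.57%. AP-1 (TGAGTCA) was in 17.1% against 17.6%, RUNX (TGTGGT) in 25.8% against 27.7%, TEAD (CATTCC) in 17.3% against 19.9%, the E-box CAGGTG in 15.03% against 15.9%, CCAAT in 35.1% against 35.7% and CRE (TGACGTCA) in 0.401% against 1.23%. Among peaks in intergenic DNA or at gene ends alone, CAGCTG was in 17.9% of members against 28.9% of tested peaks, and GGGCGG in 3.75% against 7.66%.

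H4K20me1 came from other libraries than the rule used and was therefore an independent readout. A H4K20me1 peak overlapped 704 members (70.5%), compared with 60.7% of tested Pol II S2P peaks and 49.4% of those losing share. The 545 H4K20me1 peaks under members had a median length of 30.4 kb, against 17.2 kb under any tested Pol II S2P peak and 8.40 kb over all H4K20me1 peaks. In Ctrl they held 30.2 and 39.1 per kb, against 26.0 and 33.7 under any tested Pol II S2P peak and 22.3 and 29.8 over all. In sKO the values were 52.3 and 56.2 per kb, against 51.8 and 55.7 and against 48.8 and 53.1.

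On the deposited scale H4K20me1 rose almost everywhere. Across all autosomal H4K20me1 peaks with a mean over 50, 90.1% were called higher in sKO by limma (Benjamini-Hochberg adjusted p under 0.1, log2 fold change over 0.5) and 0.00244% lower. Under members 406 of 545 were called higher (74.5%) and 0 lower, and 0 had a fall at an unadjusted p under 0.05. The median log2 fold change was 0.82 under members, 1.15 under any tested Pol II S2P peak and 1.14 over all. Without sKO replicate 1 the count under members was 171 and without sKO replicate 2 it was 113, against 57.3% and 43.8% called over all peaks in the same fits.

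When each H4K20me1 library was divided by its own autosomal total, the direction under members turned. The median was then -0.16 under members, 0.17 under any tested Pol II S2P peak and 0.17 over all H4K20me1 peaks. By limma 128 of 544 (23.5%) were called lower and 66 (12.1%) higher, against 4.42% lower and 22.5% higher over all. Under any tested Pol II S2P peak 9.72% were called lower. With quantile normalisation 94 (17.3%) were called lower, against 11.3% over all. High H4K20me1 peaks had smaller changes in general, so peaks with a mean over 1000 were also taken alone. Of those, 33.9% were called lower under members, 18.6% under any tested Pol II S2P peak and 11.9% over all.

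Per library, the H4K20me1 peaks under members took 5.05% and 4.90% of the autosomal H4K20me1 score in Ctrl and 3.99% and 3.95% in sKO. The genotypes did not overlap. H4K20me1 peaks under any tested Pol II S2P peak also took less in sKO, at 32.4% and 32.0% against 35.6% and 34.6%. Members within 20 kb past a gene end (520 in a H4K20me1 peak) and members elsewhere (184) had medians of -0.22 and -0.15 on this scale. The part of H4K20me1 level and peak length in this result was not tested beyond the comparison of high peaks.

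**Figure D5:**
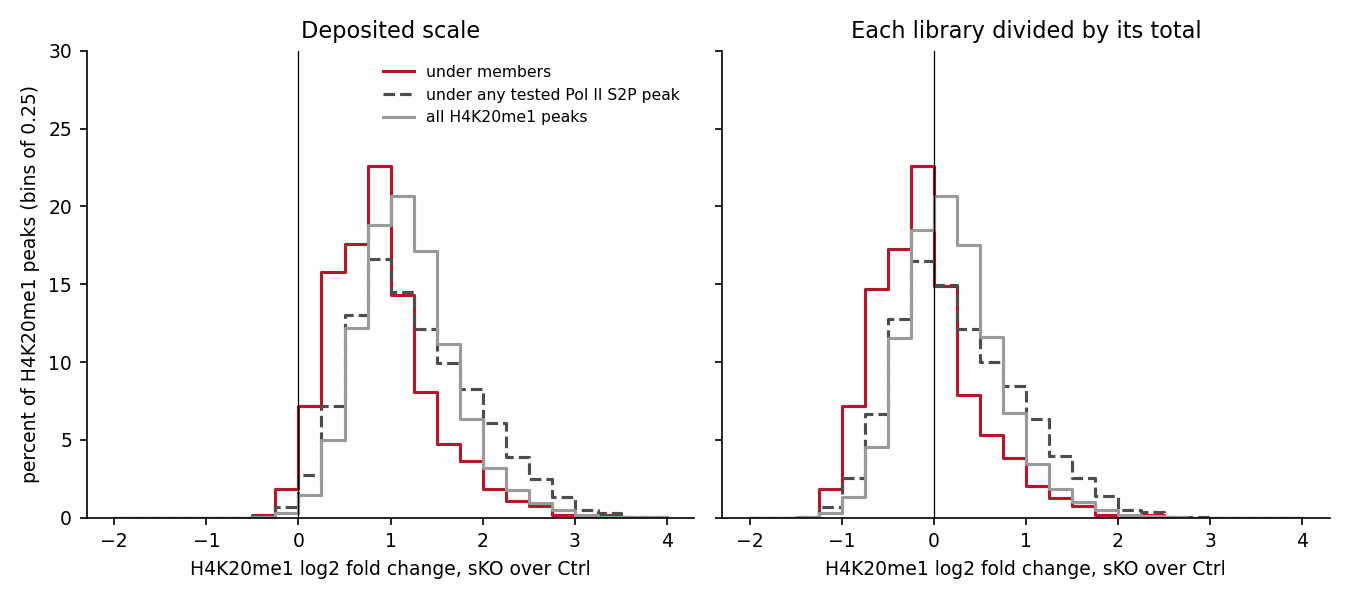
Distribution of H4K20me1 log2 fold changes, sKO over Ctrl, as percent of peaks in bins of 0.25, on the deposited scale (left) and after each library was divided by its autosomal total (right). The curve under members (red) lies to the left of all H4K20me1 peaks (solid grey) on both scales, with medians of 0.82 against 1.14 and -0.16 against 0.17.

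Single H4K20me1 peaks under members spanned both extremes. The largest rise was over 3.80 kb at chr7:24457400-24461199, with deposited scores of 28, 18, 242 and 245 and rose by 3.38 ± 0.51 on the log2 scale (± is the SE, adjusted p 1.70e-09 by limma). In Ampd3 a peak had 31, 55, 262 and 320 (2.78 ± 0.42, limma adjusted p 1.15e-09). A small peak of chromosome 1 had 8, 20, 123 and 66 (2.73 ± 0.84, limma adjusted p 0.0020). All 3 had low H4K20me1 in Ctrl.

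The 3 lowest log2 fold changes were broad peaks over genes of RNA binding proteins that regulate splicing. Over 104 kb at Qki, scores were 5227, 6917, 5185 and 5593 and the log2 fold change -0.16 ± 0.30 (limma adjusted p 0.61). At Tra2b they were 1312, 1495, 1168 and 1218 (-0.23 ± 0.27, limma adjusted p 0.40). At Rbm39 they were 1842, 2436, 1663 and 1895 (-0.25 ± 0.27, limma adjusted p 0.36). None of the 3 was called on the deposited scale. On the share scale they fell by 1.14 ± 0.047, 1.21 ± 0.084 and 1.24 ± 0.071 (limma adjusted p 2.62e-128, 3.47e-44 and 3.79e-65). These 3 peaks were picked by fold change. The variance in limma is moderated over all fitted peaks, so these p-values do not rest on the spread of 4 libraries alone. The member in Tra2b had Pol II S2P deposited scores of 38, 55, 133 and 71, and the one in Rbm39 had 92, 99, 180 and 148.

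The members' own Pol II S2P contrast was fitted by limma for reference only, since the rule used it. It called 437 of the 998 higher, where 2.49% of all tested peaks were called higher. Without Ctrl replicate 1, sKO replicate 1 or sKO replicate 2 it called 144, 107 or 269 members. Members were higher in sKO replicate 1 than in replicate 2 in 59.3% of cases, against 47.5% of tested peaks. On the deposited scale 472 of the 998 passed the ratio of 1.3, where 3.33% of peaks did. By chromosome the share of tested peaks that were members ran from 2.12% on chromosome 19 to 6.78% on chromosome 12.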

How the data were processed

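Cultured MuSCs of 2 genotypes were profiled by CUT&RUN. Per the study's methods, the authors trimmed reads with Trimmomatic 0.39, aligned them to mm10 (GRCm38, Ensembl release 99) with STAR 2.7.3a keeping unique alignments, and removed duplicates with Picard 2.21.7. The deposited values are whole-number scores per peak and library on 1 set of peaks per antibody. The methods describe coverage normalised by spike-in, and the labels name DNA of S2, a Drosophila cell line, as that spike-in. The study lists sequenced and mapped reads for each library, which were not used here. The scores are not read counts and the reads behind a score are not given, so no count model was used. The roles of SICER 0.0.41 and MACS2 2.1.1, listed in the submitters' processing notes, are not given in the sources used here. A further deposited column holds the fraction of the peak that lies in the listed gene, and it was not tested.

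Here each Pol II S2P library was divided by its autosomal total and multiplied by the mean total. Peaks on chromosomes X and Y were left out. Changes were fitted with limma 3.58.1 (R 4.3.3, moderated with a mean trend) on log2(score + 1), genotype only, for autosomal peaks with a mean over 50, adjusted over all of them. A call needed a log2 fold change beyond 0.5 and an adjusted p under 0.1. H4K20me1 was fitted on the deposited scale, and on the share scale as an alternative. The scripts were tested on simulated data.

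Positions, gene ends and base composition came from GENCODE M21 and the RefSeq GRCm38 genome, and near copies from BLAST 2.17.0. Of 1756 listed Pol II S2P genes with no whole symbol, 1742 were named from GENCODE M21. Position was assigned by peak centre in the order gene start (within 1 kb), gene end (up to 3 kb past), gene body and intergenic.

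Named peaks were the 15 with the largest ratio, the 10 with the highest mean, those nearest the limit of 1.3, genes listed with 3 or more members, up to 4 members per gene list, and the 3 H4K20me1 peaks under members with the largest change in each direction. Genes named by the end behind a member were chosen after their values were seen. The members and lists were chosen with earlier results of these data known. Same-numbered replicates did not deviate together (correlation -0.040 for Pol II S2P and 0.035 for H4K20me1). Some peaks and genes are not reported here.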

Additional observations from a re-analysis of the deposited data

Results flagged for a closer look

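Chromosome X was outside the rule. With the same scale and limits, 10 of 236 Pol II S2P peaks on X with a mean over 50 met the gain rule (4.24%, against 4.47% on autosomes), and 13 met the mirrored loss rule. The largest ratio, 1.69, was at a peak listed with Tktl1 and past the end of the actin crosslinker gene Flna, where share-scaled Ctrl scores of 46.1 and 55.9 stood against 94.7 and 106 in sKO. Others lay in Ddx3x, a helicase gene, and past Bcap31, Rlim, Kdm5c and Rbm3.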

How the results depend on the processing

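The number of peaks meeting the gain rule depended on its limits and scale. It was 2161 and 352 with a minimum mean of 25 and 100, 1653 and 384 with a ratio over 1.2 and 1.5, 1593 and 597 when libraries were scaled to gene starts and to intergenic peaks (both chosen after seeing the data), and 1894 to 2870 when 1 library was left out, which makes the rule easier to meet. The share within 20 kb past a protein-coding gene end was 65.6% on the deposited scale and 66.2% and 81.5% with those minimum means. It was 76.3% with a ratio over 1.5, 76.9% scaled to intergenic peaks and 60.6% to 71.7% with 1 library left out. All were above 48.7%, the share of peaks tested under the main rule, which was not recomputed for these settings. With limits of 10 and 50 kb the share of members was 56.2% and 79.96% (37.1% and 66.2% of tested peaks), and with lncRNA genes included 78.1% (57.5%). All of these alternatives for the share were chosen after seeing the data. The share at a gene start was 4.11% within 500 bases and 3.61% for peaks covering the start (20.1% and 18.4% of tested peaks). Among peaks meeting the rule under alternatives chosen after seeing the data it was 12.3% with the GC trend taken out. It was 9.20% and 4.69% with a ratio over 1.2 and 1.5, and 9.17% and 5.36% scaled to gene starts and to intergenic peaks. With 1 library left out it was 8.71% to 11.8%. All were under 23.9%, the share of peaks tested under the main rule. Limma called 10 Pol II S2P peaks higher on the deposited scale instead of 556, and 136 to 759 with 1 library left out. Under members, H4K20me1 peaks called higher were 66 on the share scale, 39 with quantile normalisation and 113 to 471 with 1 library left out; called lower they were 128, 94 and 0. The median log2 fold change was -0.16 and -0.10 on the first 2 and 0.63 to 1.01 with 1 library left out. Leaving out Ctrl replicate 1 or 2 gave the peak at Qki a log2 fold change of -0.36 or 0.043, uncalled in both. With the replicate number as a block, 524 Pol II S2P peaks, 411 of the members and 405 H4K20me1 peaks under members were called higher. On the share scale with this block, chosen after seeing the data, 128 H4K20me1 peaks under members were called lower and 66 higher, with a median of -0.16. The block changed no call of a named H4K20me1 peak on either scale where it was fitted. The cause of these changes was not tested. The reads behind each score are not given, so counting error is unknown.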
